A study of Rattus norvegicus with 20 samples.

Results

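The 10 genes described here mark microglia, the resident macrophages of the brain, or belong to the complement system: C1qa, C1qb, C1qc, C3, Csf1r, Cx3cr1, Itgam, Tyrobp, Aif1 and Cd68. They were taken by name, through the probe sets that the platform annotation assigns to each of them alone, and are 10 of 14217 genes with such a probe set. Together they have 11 probe sets, with 2 for Aif1 and 1 for each of the others.

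Microglia survey brain tissue, engulf debris and synapses, and depend on the receptor Csf1r for survival. They are a main source of C1q in the brain, the recognition molecule of the classical complement pathway, which is built from the chains A, B and C and leads to cleavage of C3, the central complement protein. C1q and C3 fragments can tag synapses and debris for uptake through complement receptor 3, of which Itgam encodes a chain. Neurons act on microglia through Cx3cl1, the ligand of Cx3cr1, and through Il34, which shares the receptor Csf1r with Csf1.

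The data were 1-colour Affymetrix signals from 20 male Sprague Dawley rats, 20 weeks old and 250 to 300 g in weight, with 1 array for each rat. Of these, 10 breathed pure oxygen for 15 minutes, and 10 were given the volatile anaesthetic isoflurane in oxygen, at 2% (1.4 MAC, the unit of anaesthetic potency). Brains were taken after 6 hours of recovery, and the tissue is labelled cortex. The isoflurane carrier gas was the gas the controls breathed, so oxygen exposure was common to both groups.

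Markers went against that label on 11 arrays. Pcp2, a gene of cerebellar Purkinje cells, divided the arrays at 12 on the log2 scale into 11 with a high signal (6 oxygen, 5 isoflurane; 13.60 to 14.17) and 9 with a low signal (4 oxygen, 5 isoflurane; 4.46 to 10.67). On the 11 arrays Gabra6, of cerebellar granule cells, was also high (13.40 to 14.10, against 2.97 to 10.70 on the 9). The cortical transcription factor genes Fezf2 and Emx1 were low there, at 1.31 to 6.96 and 3.40 to 7.28, against 8.69 to 9.43 and 8.37 to 8.93 on the 9. Isoflurane replicates 2, 4, 5 and 6 stood apart among the 9 arrays, with Pcp2 at 4.46 to 5.93 against 7.63 to 8.78 on the 4 oxygen arrays. Isoflurane replicate 10 lay on the other side, above the 4 oxygen arrays, with Pcp2 at 10.67 and Gabra6 at 10.70. Among the 11 arrays isoflurane replicate 9 stood apart from the other 4 isoflurane arrays in its Gapdh 3'/5' log ratio, a sign of RNA quality. It was 0.46 against 0.12 to 0.21 on those 4, while the 6 oxygen arrays of the set had 0.17 to 0.41. The array set therefore entered the comparisons. Calls for isoflurane were also examined without isoflurane replicates 2, 4, 5 and 6 together, and with each array left out in turn.

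Of the 10 genes, 8 passed the filter on low signal (a mean log2 signal above 6.62) and were tested. Cd68 and Itgam did not pass, nor did 1 of the 2 probe sets of Aif1.

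The C1q genes lie side by side on chromosome 5 in the order C1qb, C1qc, C1qa, with no other annotated gene in the interval (RefSeq, rat assembly GRCr8). RefSeq promoter sequences were matched for 7 of the 10 genes (C1qa, C1qb, Csf1r, Cd68, Cx3cr1, Itgam and C3). The 250 bases before the start are shown for a C1q pair and for C3, whose signals differed between the array sets, and for Cx3cr1, whose signal was not shown to differ. Capitals mark matches on either strand to GAGGAA (the core bound by PU.1, the ETS factor of myeloid cells), to GGAAGT (an ETS-type core) or to TTNNGNAA (a C/EBP-type site). C1qa lies at chr5:154419934-154420183 on the minus strand, C1qb at chr5:154407828-154408077 on the minus strand, C3 at chr9:2201340-2201589 on the minus strand and Cx3cr1 at chr8:128677067-128677316 on the minus strand.
C1qa: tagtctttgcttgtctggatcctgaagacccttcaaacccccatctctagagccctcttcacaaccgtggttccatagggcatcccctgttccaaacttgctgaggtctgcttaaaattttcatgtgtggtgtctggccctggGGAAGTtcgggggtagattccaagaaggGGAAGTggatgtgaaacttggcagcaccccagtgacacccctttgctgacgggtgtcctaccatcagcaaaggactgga
C1qb: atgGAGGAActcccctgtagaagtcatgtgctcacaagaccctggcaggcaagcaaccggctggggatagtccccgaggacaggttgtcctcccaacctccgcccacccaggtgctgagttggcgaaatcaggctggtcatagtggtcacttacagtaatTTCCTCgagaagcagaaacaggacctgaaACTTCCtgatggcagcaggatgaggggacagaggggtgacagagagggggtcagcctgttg
C3: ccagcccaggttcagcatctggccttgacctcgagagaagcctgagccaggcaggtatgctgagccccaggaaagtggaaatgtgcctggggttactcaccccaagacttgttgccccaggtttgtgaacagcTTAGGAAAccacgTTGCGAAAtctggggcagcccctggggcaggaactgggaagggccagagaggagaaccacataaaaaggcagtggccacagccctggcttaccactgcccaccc
Cx3cr1: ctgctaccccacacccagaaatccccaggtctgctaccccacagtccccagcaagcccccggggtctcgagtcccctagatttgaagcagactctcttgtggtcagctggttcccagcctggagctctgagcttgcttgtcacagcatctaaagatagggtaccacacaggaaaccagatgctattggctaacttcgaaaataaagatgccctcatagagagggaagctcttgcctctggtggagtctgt

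The C1qa window held GGAAGT at 2 places, from base -107 and from base -79 counted back from the start. The C1qb window held GAGGAA from -247 and, on the opposite strand, from -90, and GGAAGT on the opposite strand from -61. The C3 window held TTNNGNAA from -117 and from -104, the latter on both strands. None of these letters stood in the Cx3cr1 window. Over the 7 matched genes GAGGAA was in 4 (C1qb, Csf1r, Cd68 and Itgam), as in 23.3% of 33469 promoters of the same length. GGAAGT was in 3 (19.2% of promoters) and TTNNGNAA in 4 (37.2%). In the Itgam window a GAGGAA match lay inside a TTNNGNAA match. An IRF-type site, read as GAAA, any 2 bases and GAAA again (3.41%), and TATAAA (12.9%) were in 0 of the 7. A match describes these letters and is not a binding site, and 7 windows are too few to set against the shares over all promoters.

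The larger contrast in these genes was between the array sets. The genes for all 3 C1q chains, C3, Csf1r, Tyrobp and Aif1 had higher signals on the 9 arrays with low Pcp2 than on the 11 with high Pcp2, by 1.42-fold (C1qc) to 2.35-fold (Aif1) with the exposure group in the model. Thus 7 of the 8 tested genes passed at an adjusted p under 0.05 in limma, in the same direction, and Cx3cr1 did not. The background was high: 60.8% of all 18625 tested probe sets passed in either direction, 24.8% in the direction of these 7 and 36% in the opposite one. The median difference of the 8 genes, high minus low arrays, was -0.84 on the log2 scale against 0.10 over all tested probe sets. In whole tissue, fewer microglia and less RNA in each of them cannot be told apart.

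**Figure D1:**
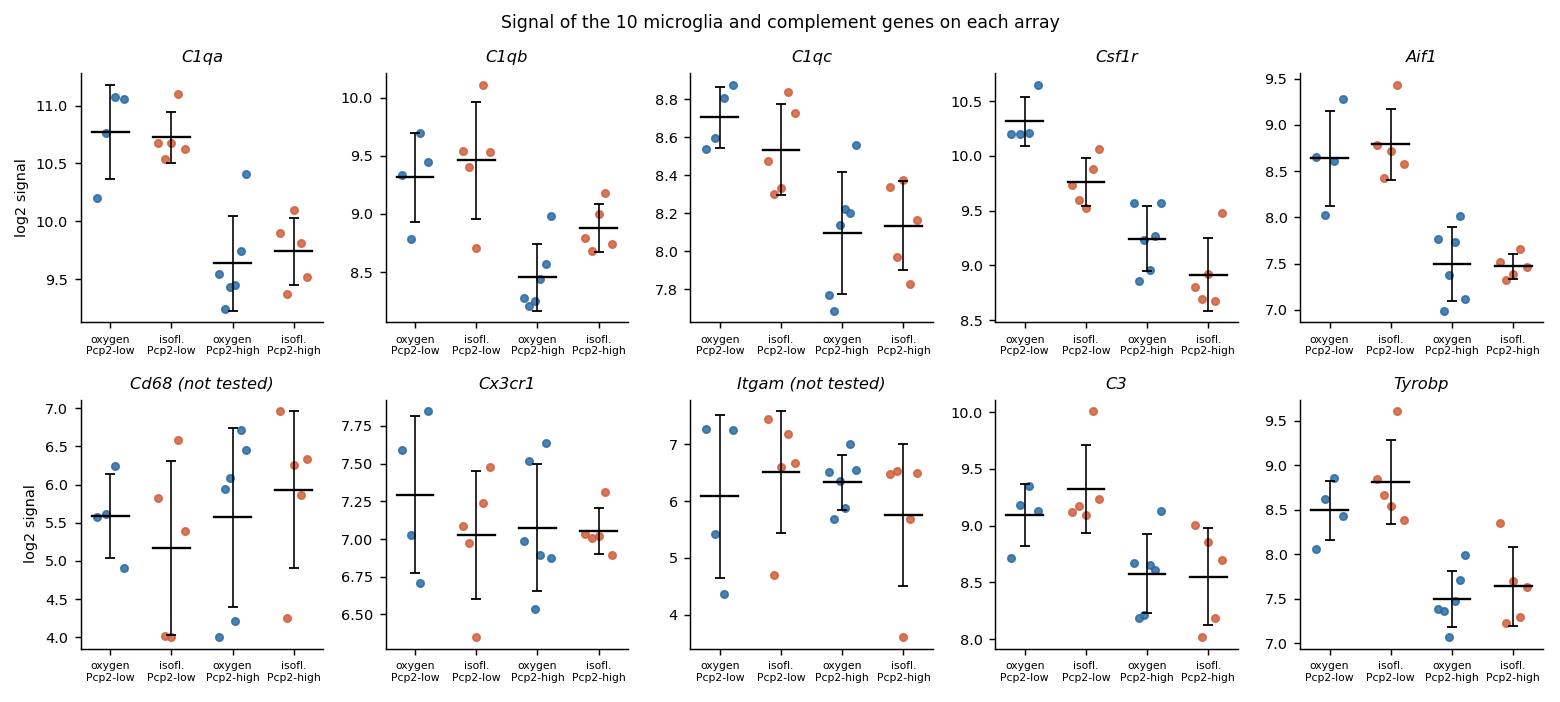
Each point is the log2 signal of 1 of the 10 genes on 1 array, by its brightest probe set, split by gas and by Pcp2 signal (4 oxygen and 5 isoflurane arrays with low Pcp2, 6 and 5 with high Pcp2), and bars are the mean ± SD. For Aif1 no array with low Pcp2 lies below 8.02 and no array with high Pcp2 lies above 8.01, whereas the sets overlap for Cx3cr1 and for the untested Cd68 and Itgam, although 4 of the 9 Itgam values lie above every one of the 11.

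Among the C1q chains, C1qa had a lowest log2 signal of 10.21, a median of 10.68 and a highest of 11.10 on the 9 arrays, against 9.25, 9.54 and 10.41 on the 11. The sets overlapped through oxygen replicate 10, since 10 of the 11 arrays lay below every one of the 9. The difference was 1.06 ± 0.14 SE (95% confidence interval 0.77 to 1.36, adjusted p = 1.48e-06). C1qb had 8.71, 9.44 and 10.11 on the 9, against 8.21, 8.68 and 9.18. More arrays overlapped for this chain, with 7 of the 9 above every one of the 11, and the difference was 0.72 ± 0.15 SE (adjusted p = 0.000343). C1qc ran from 8.30 to 8.88 (median 8.60) and from 7.68 to 8.56 (median 8.16). Its difference of 0.50 ± 0.12 SE (adjusted p = 0.000855) was the smallest of the 7 that passed.

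C3, which in brain is made by glial cells of more than 1 kind, had a lowest, median and highest log2 signal of 8.71, 9.17 and 10.01 on the 9 arrays, against 8.02, 8.65 and 9.13. The difference was 0.65 ± 0.16 SE (adjusted p = 0.00116). Isoflurane replicate 6 gave the highest C3 signal at 10.01, and the other 8 arrays of its set reached no more than 9.35.

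Of the receptors, Csf1r had 9.53, 10.07 and 10.65 as lowest, median and highest log2 signal on the 9 arrays, against 8.67, 8.96 and 9.57. Overlap was confined to the edge, with 9 of the 11 arrays below every one of the 9, and the difference was 0.96 ± 0.12 SE (0.71 to 1.21, adjusted p = 5.85e-07). Cx3cr1, the fractalkine receptor of microglia, ran from 6.35 to 7.85 (median 7.08) and from 6.53 to 7.64 (median 7.01). These ranges lay almost on top of each other. Its difference of 0.09 ± 0.17 SE had an interval of -0.27 to 0.46 (adjusted p = 0.661). The intervals of C1qb (0.40 to 1.03), C1qc (0.26 to 0.75) and C3 (0.32 to 0.97) overlapped it. Those of C1qa, Csf1r, Tyrobp and Aif1 did not, and differences between genes were not tested. Itgam, not tested, lay between 4.36 and 7.44 on the 9 arrays, against 3.60 to 7.00 on the 11, with 4 of the 9 above all 11.

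Tyrobp, the adaptor that carries signals from Trem2 and other microglial receptors, had 8.06, 8.62 and 9.61 as lowest, median and highest log2 signal on the 9 arrays, against 7.07, 7.47 and 8.35. Of the 11, 10 lay below every one of the 9, and the difference was 1.08 ± 0.17 SE (adjusted p = 1.13e-05). Aif1, which encodes the calcium-binding protein Iba1 used to stain microglia, ran from 8.02 to 9.44 (median 8.65) and from 6.99 to 8.01 (median 7.47). It was the 1 tested gene of the 8 whose sets did not overlap, as was so in this direction for 9.34% of all tested probe sets. Its difference was 1.23 ± 0.16 SE (0.90 to 1.57, adjusted p = 1.06e-06). The dimmer Aif1 probe set, below the filter, had means of 6.48 ± 0.56 (SD, n = 9) and 6.16 ± 0.60 (SD, n = 11), and averaging both probe sets gave a difference, high minus low, of -0.79 (adjusted p = 9.28e-06). Cd68, a lysosomal glycoprotein of phagocytes, was not tested, and lay between 4.00 and 6.59 on the 9 arrays and between 4.00 and 6.97 on the 11.

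The split held in both exposure groups. With the 10 oxygen arrays alone the same 7 genes passed, with adjusted p-values up to 0.0407 (C3), and with the 10 isoflurane arrays alone up to 0.0421 (C1qc). Of the tested probe sets 46.4% and 55.4% passed in either direction, and 18.9% and 24.3% in that of the 7. The same 7 also passed when isoflurane replicates 2, 4, 5 and 6 were left out, with values, high minus low, from -0.56 (C3) to -1.13 (Aif1). In that fit 9915 of all 18625 tested probe sets passed in either direction.

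**Figure D2:**
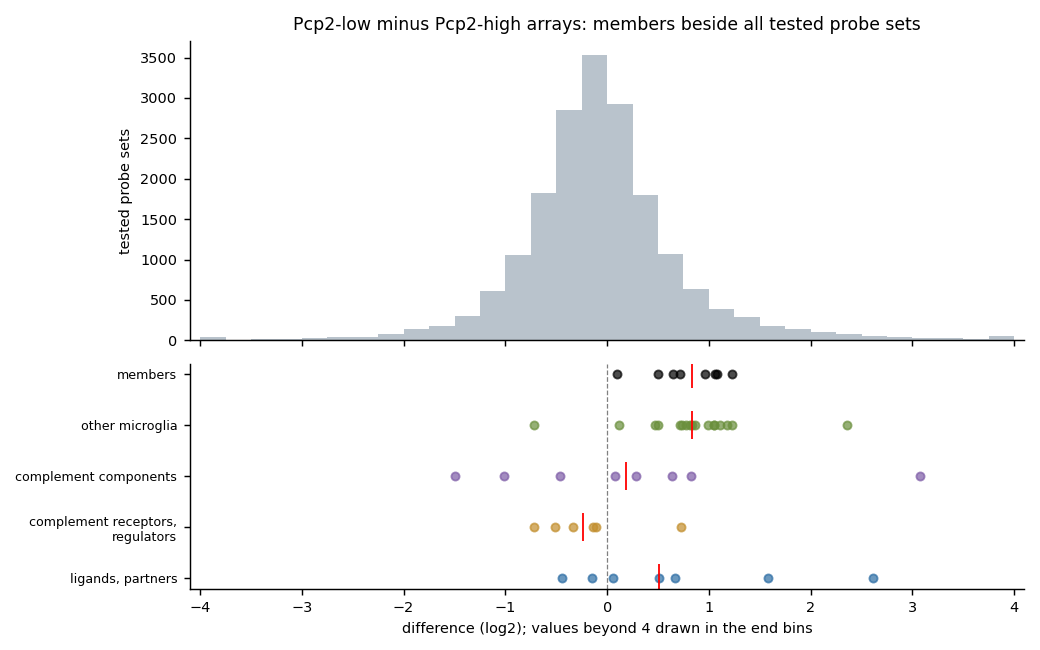
The upper panel counts all 18625 tested probe sets by their log2 difference, arrays with low Pcp2 minus arrays with high Pcp2, and the lower panel marks single genes of 5 lists on the same axis, with a red line at each list's median. The 8 tested members all lie above 0, from 0.09 (Cx3cr1) to 1.23 (Aif1). The lists of complement components, which also holds C1q-like genes, and of regulators lie on both sides.

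Most other genes of microglia had the same direction. Of 30 listed, 17 were tested. Signals of 16 were higher on the 9 arrays with low Pcp2, and 15 of these passed. Values, high minus low, were -2.35 ± 0.14 SE for Inpp5d, a lipid phosphatase of immune signalling (adjusted p = 9.73e-12), and -1.18 ± 0.11 SE for Sall1, a transcription factor of microglial identity (adjusted p = 9.78e-09). They were -0.99 ± 0.10 SE for Fcer1g, an adaptor like Tyrobp (adjusted p = 2.02e-08), and -1.11 ± 0.14 SE for Ctss, a lysosomal protease (adjusted p = 5.36e-07). Olfml3 passed the other way (0.71, adjusted p = 0.000231) and Lyz2 did not pass. The median of the 17 was -0.83.

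Of 8 cerebellar markers 8 passed as higher on the 11 arrays, but they include Pcp2, which defined the sets. Of 6 cortical neuron markers 5 passed as higher on the 9. Markers of other cell types also differed between the sets, and their part in the results on the members was not tested. All 7 tested oligodendrocyte markers passed as higher on the 9 arrays (median -0.54, and -0.69 for Mog, with the lowest p). So did 4 of 7 endothelial and mural markers. Astrocyte markers split, with 3 of 8 passing in each direction (Slc1a2 -2.24, Aqp4 0.41). Of 7 tested markers of monocytes, border macrophages and blood cells, 5 passed as higher on the 11 arrays, the opposite direction to the members. Those with the lowest p in limma were the erythroid genes Alas2 (1.50 ± 0.37 SE, adjusted p = 0.00154), Hbb (0.68, adjusted p = 0.0142) and Slc4a1 (0.75, adjusted p = 0.0273). S100a9 followed (1.89, adjusted p = 0.0324). The list is mixed, so this count does not describe monocytes or macrophages alone. Of 6 choroid plexus and meningeal markers 2 passed as higher on the 11. Without isoflurane replicates 2, 4, 5 and 6 these counts fell to 1 of 7 for monocyte, macrophage and blood cell markers, 0 of 7 for endothelial and mural markers and 0 of 6 for choroid plexus and meningeal markers (limma), with 2, 3 and 0 at an unadjusted p under 0.05. The summed linear signal of those 7 markers was between 5859 and 19680 on the 9 arrays, against 10079 to 36387 on the 11, and none of them was at the floor on all arrays of a group.

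The lists drawn up for the rest of the complement system gave no common direction. Of 8 tested genes in the list of components, which also holds C1q-like genes, 3 passed as higher on the 9 arrays and 3 on the 11. Among the 3 higher on the 9 were C1ql3 (-3.08 ± 0.32 SE, adjusted p = 4.4e-08) and C1ql1 (-0.83 ± 0.14 SE, adjusted p = 2.31e-05). These encode C1q-like proteins that neurons release at synapses, so that count is not one of complement components alone. The proteases Masp2 of the lectin pathway (1.49 ± 0.17 SE) and C1r, which works with C1q (1.02 ± 0.13 SE), were higher on the 11. Of 6 tested receptors and regulators, Clu, an inhibitor of the terminal complex, was higher on the 9 (-0.72 ± 0.07 SE, adjusted p = 1.24e-08). Serping1, the inhibitor of C1r and C1s (0.72), Cr1l, an inhibitor of C3 cleavage (0.51), and Susd4 (0.33) were higher on the 11, but for Susd4 the value was -0.03 with the oxygen arrays alone.

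Of 7 tested ligands and partners of the member receptors, 4 passed as higher on the 9 arrays and 1 on the 11. Cx3cl1 differed by -2.61 ± 0.17 SE, high minus low (adjusted p = 3.57e-11), although its receptor Cx3cr1 did not pass. Il34 differed by -1.58 ± 0.09 SE (adjusted p = 4.1e-12), and the other ligand of Csf1r, Csf1, had a value of -0.05 ± 0.10 SE (adjusted p = 0.641), which became -0.24 (adjusted p = 0.0347) without isoflurane replicates 2, 4, 5 and 6. Cd200, a neuronal inhibitor of microglia (-0.51), and the receptor gene Tgfbr1 (-0.67) were higher on the 9 arrays and Cd47, a signal against phagocytosis, on the 11 (0.45), while Sirpa, the receptor of Cd47, did not pass (0.15, adjusted p = 0.193). With averaged probe sets Cd200 was at -0.14 (adjusted p = 0.527) and Tgfbr1 at -0.08 (adjusted p = 0.572), so neither passed. Among 11 tested genes of inflammatory activation, 5 passed as higher on the 9 arrays and 2 on the 11. Ptgs2 (-2.34), the cyclooxygenase that cortical neurons also express, and Il18 (-0.75) were among the former, and Spp1 (3.78) and Irf1 (0.65) were the latter.

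The exposure itself was compared with the array set as a term in the model, so that isoflurane arrays are set against oxygen arrays of the same set. This term does not adjust for differences inside a set, such as the Pcp2 signals of isoflurane replicates 2, 4, 5, 6 and 10. Among the members a single gene, Csf1r, changed: it fell by 0.43 on the log2 scale (1.35-fold lower). That is 1 of the 8 tested, where 7.37% of all tested probe sets passed in either direction and 4.79% passed downwards (2.58% upwards), so this share is near the background. The genes of C1q, C3, Tyrobp, Aif1 and Cx3cr1 did not pass.

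**Figure D3:**
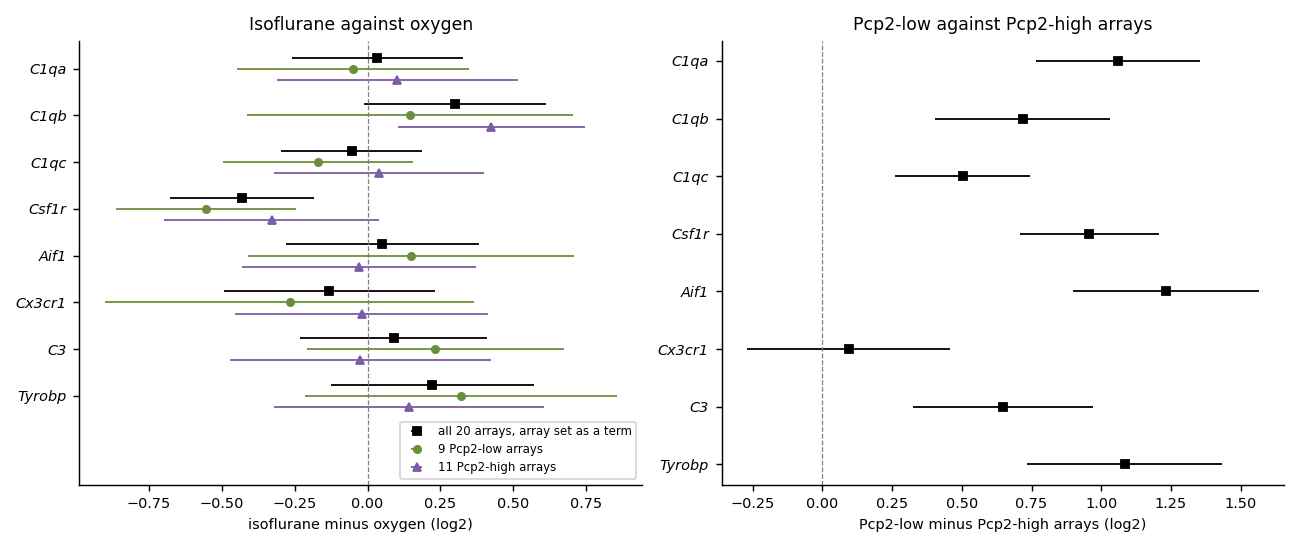
Points are log2 differences in limma with 95% confidence intervals for the 8 tested genes. On the left, isoflurane minus oxygen is shown over all 20 arrays with the array set as a term and within each set, where the intervals of Csf1r lie below 0 in the first and within the 9 arrays with low Pcp2, and that of C1qb (0.10 to 0.75) lies above 0 within the 11, without passing after adjustment. On the right, arrays with low Pcp2 are set against those with high Pcp2, and 7 of 8 intervals lie above 0.

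On the 4 oxygen arrays with low Pcp2, Csf1r read 10.20, 10.21, 10.21 and 10.65. On the 5 isoflurane arrays of the set it read 9.74, 9.60, 9.53, 9.88 and 10.07. All 5 lay below all 4, as happened in this direction for 6.52% of tested probe sets. The difference was -0.56 ± 0.14 SE (interval -0.86 to -0.25, limma adjusted p = 0.0221), in a fit that passed 18.6% of all tested probe sets, 7.42% downwards and 11.2% upwards. On the 11 arrays with high Pcp2 the 6 oxygen arrays ran from 8.86 to 9.57 (median 9.25), and the 5 isoflurane arrays read 8.81, 8.70, 8.92, 8.67 and 9.48. There, 3 of the 5 lay below every oxygen array and isoflurane replicate 9 lay above the oxygen mean. The value was -0.33 ± 0.17 SE (adjusted p = 0.418), in a fit that passed 0% of tested probe sets, with 2376 of them at an unadjusted p under 0.05. That background rested on isoflurane replicate 9: without it 1086 probe sets passed, and with array weights 1075. Csf1r was then at -0.47 without that array (adjusted p = 0.0751), and 0 of the 8 members passed. The values of the 2 sets differed by 0.23 ± 0.24 SE (adjusted p = 0.566), so no difference between the sets was shown.

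This call was not stable. Over all 20 arrays with the set as a term the adjusted p of Csf1r was 0.0346 (-0.43 ± 0.12 SE, interval -0.68 to -0.18), and it ranged from 0.00316 to 0.549 over 35 alternatives, 16 of which lost the call. Leaving out the 4 isoflurane arrays gave -0.31 (adjusted p = 0.289). Within the 9 arrays it gave -0.25, with 1 isoflurane array left, which is assumed to vary like the others. That array was replicate 10, with the highest Pcp2 signal of the 9 (10.67). Leaving out replicate 10 instead took the probe sets that passed within the 9 from 3469 to 6266. With the 3'/5' signal ratio of the Gapdh control probe sets as a covariate the Csf1r value was -0.30 (adjusted p = 0.319). That log ratio was 0.30 to 0.48 on the 4 oxygen arrays with low Pcp2 and 0.24 to 0.33 on the 5 isoflurane arrays. Summed linear signal of 6 choroid plexus and meningeal markers also differed there, at 1948 to 14906 after oxygen and 1366 to 1806 after isoflurane. The part of that signal in the Csf1r value was not tested.

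C1qb had the largest positive value, 0.30 ± 0.15 SE (interval -0.01 to 0.61, adjusted p = 0.205). On the arrays with high Pcp2 the 6 oxygen arrays ran from 8.21 to 8.98 (median 8.36) and the 5 isoflurane arrays from 8.68 to 9.18 (median 8.79). All 5 were above the oxygen mean and 2 were above every oxygen array (0.43 ± 0.15 SE, adjusted p = 0.337), and array weights brought it under the threshold (adjusted p = 0.03), whereas leaving out isoflurane replicate 9 did not (0.46, adjusted p = 0.1). On the arrays with low Pcp2 the value was 0.14 ± 0.26 SE. Tyrobp had a value of 0.22 ± 0.17 SE (adjusted p = 0.411), with 4 of 5 isoflurane arrays with low Pcp2 and 3 of 5 with high Pcp2 above their oxygen means. Without the 4 isoflurane arrays C1qb was at 0.38 (adjusted p = 0.23) and Tyrobp at 0.09 (adjusted p = 0.83). Values for the other 5 tested genes lay between -0.13 (Cx3cr1) and 0.09 (C3), with adjusted p from 0.662 to 0.902. Their intervals reached from -0.49 to 0.41, so changes of that size were not excluded by these arrays. In the fit without the filter, Cd68 had 0.01 ± 0.43 SE (adjusted p = 0.991) and Itgam -0.12 ± 0.44 SE (adjusted p = 0.913).

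No member passed the test of a difference in the isoflurane effect between the sets (0 of 8, limma), where 10.2% of tested probe sets passed, 2.58% with a positive and 7.61% with a negative value. Values, effect on high minus effect on low arrays, ran from -0.26 (C3) to 0.28 (C1qb), and 0 of the 8 had an unadjusted p under 0.05. When each array was centred on its median, the median over all tested probe sets moved to -0.21 for isoflurane within the 9 arrays and to 0.25 for this difference. The Csf1r value of -0.77 within the 9 arrays (limma adjusted p = 0.00858) includes that shift, since the test was against 0. In that fit 5243 probe sets passed, against 3469 without centring.

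Among 7 tested ligands and partners, 2 passed downwards with the set as a term, where 4.79% of all tested probe sets did so. Cx3cl1 fell by 0.67 (-0.67 ± 0.17 SE, adjusted p = 0.0274) and Sirpa by 0.41 (-0.41 ± 0.10 SE, adjusted p = 0.0198). Il34 (-0.19, adjusted p = 0.175) and Csf1 (-0.18, adjusted p = 0.222) did not pass. On the 9 arrays with low Pcp2, Cx3cl1 read 12.59, 12.52, 12.40 and 12.95 after oxygen and 11.89, 11.96, 11.71, 11.92 and 11.73 after isoflurane. All isoflurane values were lower, as for 6.52% of tested probe sets, by 0.78 on average (-0.78 ± 0.12 SE, adjusted p = 0.00709). Within these 9 arrays 4 of the 7 passed downwards, as did 7.42% of all tested probe sets. Both ligands of Csf1r were among the 4, Il34 at -0.43 ± 0.11 SE (adjusted p = 0.0244) and Csf1 at -0.44 ± 0.13 SE (adjusted p = 0.0402). On the 11 arrays their values were 0.00 and 0.03, and the differences between the sets did not pass (adjusted p = 0.085 and 0.0765). Within the 9 arrays the call was lost in 7 of 22 alternatives for Il34, in 11 of 22 for Csf1 and in 2 of 22 each for Cx3cl1 and Sirpa. Without the 4 isoflurane arrays, Il34 was there at -0.41, Csf1 at -0.17 and Cx3cl1 at -0.88, and 0 of the 7 passed in limma, 1 having an unadjusted p under 0.05. Cd200, Cd47 and Tgfbr1 did not pass. Without the 4 isoflurane arrays none of the 7 passed with the set as a term in limma, where 0 of all probe sets passed and 3016 had an unadjusted p under 0.05, and Cx3cl1 was at -0.65 (adjusted p = 0.199) and Sirpa at -0.27 (adjusted p = 0.248). As for Csf1r, the Gapdh covariate also ended both calls (adjusted p = 0.28 and 0.256), and averaging its probe sets ended that of Sirpa (adjusted p = 0.287). Over 35 alternatives the call was lost in 8 for Cx3cl1 and in 5 for Sirpa.

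**Figure D4:**
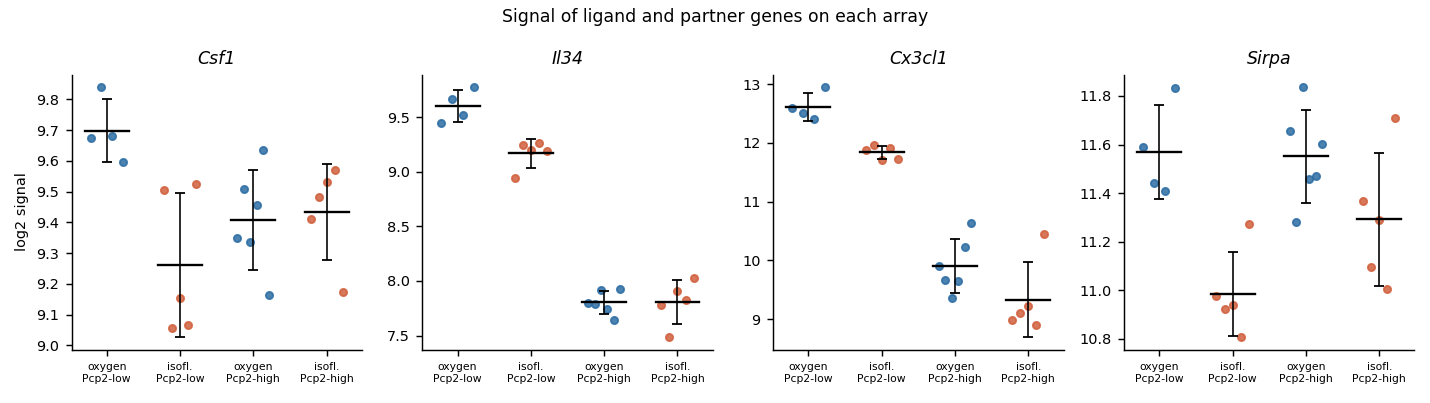
Points are log2 signals of Csf1 and Il34 (ligands of Csf1r), Cx3cl1 (ligand of Cx3cr1) and Sirpa (receptor of Cd47) on each of the 20 arrays, by gas and Pcp2 signal, with the mean ± SD. On the arrays with low Pcp2 the isoflurane arrays lie below the oxygen arrays for all 4 genes, as happened for 6.52% of tested probe sets. These 4 were drawn because they passed there, and Cd200, Cd47 and Tgfbr1, which did not pass, are not drawn. Il34 and Cx3cl1 are lower on all arrays with high Pcp2.

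Of the 17 other microglia genes, 0 passed with the set as a term in limma, with 1 at an unadjusted p under 0.05 (Tmem119, -0.48 ± 0.15 SE, adjusted p = 0.0525). Tmem119 passed in 8 of 34 alternatives, among them quantile normalization (-0.52, adjusted p = 0.0405) and centred arrays (-0.55, adjusted p = 0.0317), and was at -0.31 without the 4 isoflurane arrays (adjusted p = 0.351). Within the 9 arrays 2 of the 17 passed, both downwards, where 7.42% of all tested probe sets passed downwards and 11.2% upwards. The purinergic receptor gene P2ry12 fell by 0.62 (adjusted p = 0.0289) and the receptor gene Gpr34 by 0.68 (adjusted p = 0.0306). The P2ry12 effect differed between the sets (0.78 ± 0.25 SE, adjusted p = 0.0472), since its value on the 11 arrays was 0.16. With all P2ry12 probe sets averaged, the value within the 9 arrays was -0.06 (adjusted p = 0.749). Neither gene passed without the 4 isoflurane arrays (adjusted p = 0.902 and 0.912).

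In the complement lists, C1ql1 fell with the set as a term (-0.48 ± 0.14 SE, adjusted p = 0.0367), as did Susd4, a membrane inhibitor of complement found on neurons (-0.53 ± 0.13 SE, adjusted p = 0.0192), and Cr1l rose (0.20 ± 0.06 SE, adjusted p = 0.0442). The call was lost in 16 of 34 alternatives for C1ql1, in 4 of 35 for Susd4 and in 25 of 35 for Cr1l. Susd4 read 10.90 to 11.30 on the 4 oxygen arrays with low Pcp2 and 9.85 to 10.67 on the 5 isoflurane arrays. Its effect differed between the sets (0.70 ± 0.20 SE, adjusted p = 0.0326). Within the 9 arrays the proteases Masp2 and Masp1 went opposite ways, at 0.88 ± 0.22 SE and -0.55 ± 0.15 SE (adjusted p = 0.02 and 0.0264), and both effects differed between the sets (adjusted p = 0.0437 and 0.01), but neither passed within the 9 with its probe sets averaged (adjusted p = 0.0993 and 0.427). None of these genes passed without the 4 isoflurane arrays (limma). Of 11 tested genes of inflammatory activation, 0 passed with the set as a term in limma, 2 having an unadjusted p under 0.05, and Irf1 had the lowest p (-0.38 ± 0.12 SE, adjusted p = 0.0549). Irf1 passed in 6 of 35 alternatives, among them quantile normalization (adjusted p = 0.0427) and centred arrays (adjusted p = 0.0454). Within the 9 arrays Irf1 was the 1 of the 11 genes that passed (-0.50 ± 0.15 SE, adjusted p = 0.0386), a call lost in 10 of 22 alternatives, and within the 11 arrays 0 passed in limma, with 3 at an unadjusted p under 0.05. Without the 4 isoflurane arrays Irf1 was at -0.21 within the 9 (adjusted p = 0.927). Of the 7 markers of monocytes, border macrophages and blood cells 0 passed, and 0 had an unadjusted p under 0.05.

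Whether the members vary together was examined over the 11 arrays with high Pcp2. The 9 with low Pcp2 were left aside because 4 isoflurane arrays among them were known to stand apart. Of 28 gene pairs 20 had a positive Pearson r, with a median of 0.17. One pair passed after adjustment over the 28: C3 and Tyrobp, with r = 0.85 (permutation p = 0.00049, adjusted 0.0137) and rho = 0.83 (permutation p = 0.00282, adjusted 0.0495). Leaving out the 2 arrays farthest from the median of C3 gave r = 0.83. By rank, 4 pairs passed, the others being C1qa with C1qb (rho 0.78), C1qa with C3 (0.78) and C1qc with C3 (0.77), each at an adjusted permutation p of 0.0495. Their Pearson r of 0.74, 0.74 and 0.75 (adjusted permutation p = 0.061) became 0.68, 0.54 and 0.59 without the 2 farthest arrays. Without isoflurane replicate 9, C3 with Tyrobp kept an r of 0.85 (permutation p = 0.00128, adjusted 0.0358), but no pair passed by rank (rho 0.82 for that pair, adjusted permutation p = 0.0864). C1qb gave lower values with C1qc (0.44), Tyrobp (0.42) and C3 (0.32), and those of Csf1r, Aif1 and Cx3cr1 with the C1q chains, C3 and Tyrobp were at most 0.48. These arrays come from both gases, so an effect of gas is part of each r.

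**Figure D5:**
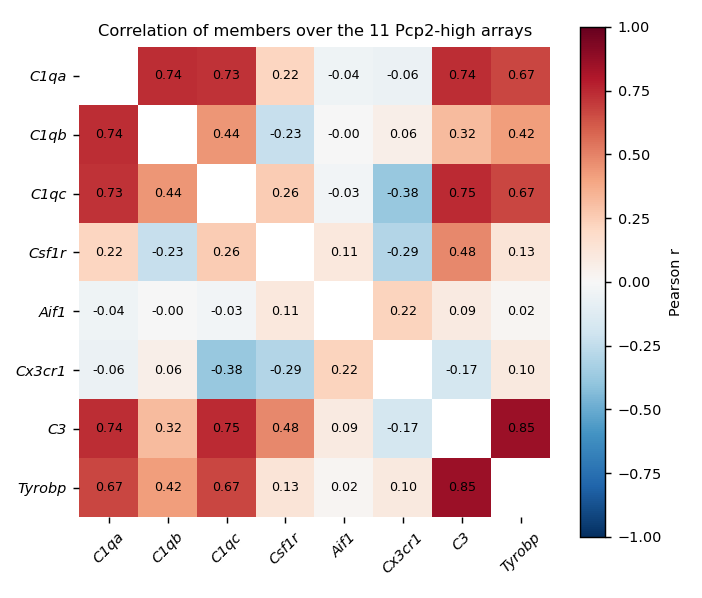
Each cell gives the Pearson r of 2 of the 8 tested genes over the 11 arrays with high Pcp2, on a colour scale from -1 to 1. C3 with Tyrobp is highest at 0.85, and C1qc with Cx3cr1 is lowest at -0.38.

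Per array, the 8 members together were highest on isoflurane replicate 6, on which 7 of the 8 exceeded their mean over the 9 arrays with low Pcp2 (0.46 higher on average), and lowest, within that set, on isoflurane replicate 5 (-0.32, with 0 of 8 above). Among the 11 arrays with high Pcp2, oxygen replicate 10 was highest (0.30, with 6 of 8 above) and oxygen replicate 6 lowest (-0.27, with 1 of 8 above). The spread between arrays of 1 gas and set had an SD of 0.26 (C1qc) to 0.40 (Tyrobp) on the log2 scale, against a median of 0.26 over all tested probe sets.

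After centring in each gas and set, the genes whose signals over all 20 arrays were most like the 8 members by mean Pearson r were Vsir, an inhibitory receptor of immune cells (0.60), Mettl7a (0.56), Pitpnc1 (0.54), Fcer1g (0.54), Tppp3 (0.53), Ntsr2, a neurotensin receptor (0.53), Rnase4 (0.53) and RT1-Da, a class II antigen presentation gene (0.52). The median of such means over 10307 genes was 0.06. Unlike the correlations above, these means include the arrays with low Pcp2. The difference of isoflurane replicates 2, 4, 5 and 6 from replicate 10 therefore stayed in them after centring, and its part was not tested. Of these 8 genes, 6 were higher on the 9 arrays with low Pcp2, RT1-Da was higher on the 11 (0.40, adjusted p = 0.0367) and Tppp3 did not pass (adjusted p = 0.468), and 0 of the 8 passed for isoflurane in limma. Cx3cr1 was least like the other members, with a mean r of 0.09, against 0.51 for C3 at the top. It was also the dimmest tested member, at a mean log2 signal of 7.10 with the filter at 6.62. The 95th percentile of such means over the 10307 genes was 0.35, and Csf1r (0.31) and Aif1 (0.29) lay below it too.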

How the data were processed

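Total RNA from tissue labelled brain cortex of 20 rats was hybridised to Affymetrix arrays, 1 array for each rat. Deposited were linear signal intensities. Per the submitters' processing notes, the authors used Affymetrix Expression Console and MAS5, with versions not given in the sources used here. A trimmed mean of the signals was 500.1 to 500.2 on every array, so changes are relative to an array's average signal. Detection calls were not used here. The number of arrays limits the precision.

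Sample titles gave the group and number of each rat. Values under 1 were raised to 1 and log2 was taken. Of 31042 probe sets that are not controls, 18625 with a mean above the 40th percentile were tested with limma 3.58.1 in R 4.3.3 (trended eBayes, two-sided tests, Benjamini-Hochberg adjustment over every tested probe set), with the array set or the exposure group as a term, within each set, and with an interaction. The fits were tested on simulated data. For a gene with several probe sets the brightest one tested stood for it, named through the platform annotation with symbols updated by gene ID. Correlations used 100000 permutations (Python 3.11.15, scipy 1.17.1). Alternatives were other normalization, pseudocounts (16 and 64), eBayes settings, filters, probe set averages, covariates, blocks and arrays left out. The correlations without isoflurane replicate 9 were added after seeing the data.

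The members, lists and alternatives were chosen with earlier results of these data known. All 10 members were named. From each other list, up to 4 genes past the threshold with the lowest p were named, otherwise the 1 with the lowest p for isoflurane, and all ligands. The 8 genes most like the members were named too. Olfml3, which passed the other way, and Lyz2, which did not pass, were named after their values were seen.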

Additional observations from a re-analysis of the deposited data

Results flagged for a closer look

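Among 60 groups of 4 to 10 arrays, 4 had a single array far from the others, where chance flags about 1 in 20 groups. The gap of that array to its nearest neighbour, as a share of the group's whole range, is given for each. For Csf1r on the 4 oxygen arrays with low Pcp2, replicate 4 read 10.65 against 10.20 to 10.21 on the others, a share of 0.982. Without it the Csf1r value within the 9 arrays was -0.44 (limma adjusted p = 0.061). For C3 on the 5 isoflurane arrays with low Pcp2, replicate 6 read 10.01 against 9.09 to 9.23 (0.847). For C1qa the same array read 11.10 against 10.54 to 10.68 (0.747). For Cx3cr1 over the 10 isoflurane arrays, replicate 5 read 6.35 against 6.90 to 7.48 (0.483).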

How the results depend on the processing

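The array set comparison kept its count of 7 passing genes in every alternative run that left the 8 members in the fit, each array left out in turn included; with the filter at the 60th percentile 5 members were tested and all 5 passed. The count for isoflurane with the set as a term was 1, and 0 with the Gapdh 3'/5' covariate, with no array set in the model and without the 4 isoflurane arrays. Within the 9 arrays it fell from 1 to 0 with that covariate and without the 4 arrays, and within the 11 it moved from 0 to 1 with array weights (C1qb). With each array left out in turn it ranged from 0 to 1 with the set as a term and within the 9 arrays. Leaving out any of oxygen replicates 2, 3, 4, 5 and 10 or isoflurane replicates 1, 2, 3, 4, 5, 6 and 8 ended the Csf1r call (adjusted p up to 0.0789), and within the 9 arrays so did oxygen replicate 4 or isoflurane replicates 2, 4 or 5. The cause was not tested.

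Same-numbered arrays did not deviate together (2 of 10 pairs correlated above 0.1, range -0.26 to 0.23), so the numbers do not pair the rats. With the replicate block the count of members was 0 (Csf1r -0.43, adjusted p = 0.101).

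The values that changed sign follow, and those with no p did not pass. With the set as a term, centred arrays gave C1qa -0.0414, Aif1 -0.0242 and Tgfbr1 -0.0450, and the covariate gave C1qa -0.0325, Aif1 -0.0424 and Cd47 0.0321. Averaged probe sets gave Aif1 -0.14, Cd47 0.0221 and Cd200 0.66 (adjusted p = 0.0351). Without the 4 arrays C1qc was at 0.0364, Aif1 at -0.0355 and Cx3cr1 at 0.0261. Within the 11 arrays Aif1, Cx3cr1 and C3 were at 0.0087, 0.0093 and 0.0067 with quantile normalization and at 0.0062, 0.0137 and 0.0090 with centred arrays. Within the 9, centred arrays gave C1qb -0.0648 and Aif1 -0.0615, averaged probe sets Aif1 -0.16, and the covariate C1qa 0.16, C1qb -0.43 and Aif1 -0.28. Without the 4 arrays C1qc, Aif1, Cx3cr1 and Tyrobp were there at 0.0241, -0.0606, 0.19 and -0.10, and the Csf1r difference between sets was at -0.0786. Between sets, high minus low, array weights gave Cx3cr1 0.0410 and Csf1 0.0701, averaged probe sets Csf1 0.27 (adjusted p = 0.0402), isoflurane arrays alone Cx3cr1 0.0271 and Csf1 0.17, oxygen arrays alone Susd4 -0.0268 and Sirpa -0.0179, and leaving out the 4 arrays Sirpa -0.0085. With each array left out in turn, values ranged with the set as a term from -0.0403 to 0.13 (Aif1), -0.0373 to 0.11 (C1qa) and -0.0211 to 0.0844 (Tgfbr1). Within the 11 arrays the ranges were -0.13 to 0.0743 (Aif1), -0.0421 to 0.13 (C1qc), -0.14 to 0.11 (C3), -0.13 to 0.0924 (Cx3cr1) and -0.0348 to 0.25 (Tyrobp). Within the 9 they were -0.0579 to 0.36 (Aif1), -0.24 to 0.0498 (C1qa) and -0.0310 to 0.33 (C1qb).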
